A study of Mus musculus with 16 samples.

Results

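The ADAM and ADAMTS proteases were followed in the left atrium (LA) and right atrium (RA) of 2 outbred wild-type mouse stocks, MF1 and Swiss Agouti (SA). All array probes whose annotated gene symbol is Adam, Adamts or Adamtsl followed by a number were taken, which gave 45 of 16593 named genes, on 70 of 23978 named probes. They comprise 29 ADAM genes on 50 probes, 14 ADAMTS genes on 18 probes and 2 ADAMTS-like genes on 2 probes. The rule reads gene names only, but this family was chosen with earlier results of these data known. Of 58 protein-coding mouse genes with such a name in RefSeq, the other 13 were not analysed here.

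The tissue was total RNA of dissected, shock-frozen atria of unpooled mice, hybridized to 16 Illumina MouseRef-8 arrays, with 4 LA and 4 RA arrays of MF1 mice and 4 LA and 4 RA arrays of SA mice. No group carried a mutation or received a treatment. The labels give an age of 12 months for both stocks, as do the array description and the sample table of the study. A single phrase of its methods text gives 12 weeks for the SA mice. The study lists the MF1 mice as male and the SA mice as female, so that stock and sex cannot be told apart. The values are log2 signals, quantile normalized within each dataset and set relative to each probe's median, which removes the level of a probe, so that all values below are relative and no gene was called expressed or absent. Differences are LA minus RA on this log2 scale, with the standard error (SE) of limma for 4 LA against 4 RA arrays. The main fit leaves out the pairing of LA and RA by mouse. A probe passed at an adjusted p (limma, Benjamini-Hochberg over 25697 probes) under 0.05 and a fold above 1.5.

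The right atrial marker Bmp10 had a difference of -2.08 in MF1 and of -3.65 in SA, with every LA array below every RA array, as the labels of the sides place it. None of 4 atrial myocyte marker genes passed in either dataset. LA replicate 2 of MF1 stood apart. The standard deviation over all probes of its deviation from the group mean was 0.23, against 0.10 to 0.15 in the other 15 arrays. In MF1, arrays of the 2 sides that carry one replicate number deviated together, so the fit with this number as a block is given for MF1 where it changed a call. Same-numbered arrays of SA did not deviate together, and the block is given there for Adamts19, whose call it changed. In SA, the ventricular myosin light chain Myl2 was -0.40, -0.75, -0.46 and -0.83 in LA replicates 1 to 4, against 0.45, 4.38, 4.10 and 5.62 in RA. Of the 4 ventricular marker genes, Myl2 and Myl3 were lower and Myh7 and Irx4 higher in LA, and Myl2 alone passed.

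ADAM proteins are membrane-anchored proteins with a metalloprotease and a disintegrin domain, and those with an active site release the outer parts of growth factors, cytokines, adhesion molecules and Notch receptors from the cell surface. ADAMTS proteins are their secreted relatives with thrombospondin repeats, and cut proteoglycans, procollagens or von Willebrand factor in the matrix and in plasma, while ADAMTS-like proteins lack the protease domain. In the heart, ADAMTS proteases are known for the turnover of versican in the developing cushions and valves. TIMP proteins inhibit many of these enzymes, and furin-type convertases activate them.

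Across the 70 probes, the difference between the atria was small for nearly all members, and large for Adamts8 in MF1 and for Adamts19 in SA. In MF1, none of the 70 probes passed, where 0.79% of all probes did. With the adjusted p alone, without the fold, the number was 0 as well, beside 1.35% of all probes. At an unadjusted p under 0.05 there were 4 of 70 probes (5.71%), namely Adamts8, Adamts5 and Adam30 with higher values in LA and Adam33 with higher values in RA, beside 10.9% of all probes. In SA, 1 probe passed, that of Adamts19, where 0.63% of all probes passed. It was also the only one with an adjusted p under 0.05, beside 2.02% of all probes. At an unadjusted p under 0.05 there were 5 of 70 (7.14%), beside 12.6% of all probes, with Adamts19, Adamts8 and 1 of 2 Adamts1 probes higher in LA, and Adam33 and 1 of 3 Adam23 probes higher in RA. The members' shares at the unadjusted p lay below those of all probes in both datasets.

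With the replicate number as a block, 1 member probe of MF1 passed, that of Adamts8, beside 1.14% of all probes. With the block and the adjusted p alone, Adamts8 and Adamts5 were the 2 members called, beside 2.45% of all probes. In MF1, 35 of 70 member probes had higher values in LA, as had 12836 of the 25697 probes, and the median difference of the members was 0.00. In SA, 27 of 70 (38.6%) had higher values in LA, beside 50.6% of all probes, with a median of -0.02. The 4 LA arrays lay entirely above or below the 4 RA arrays for 6 members in MF1 (8.57%, beside 6.99% of all probes) and for 2 members in SA (2.86%, beside 7.17%). In MF1 these were Adamts8, Adamts5, Adamts3 and Adam30 with LA above RA, and Adam33 and Adam32 with LA below RA. In SA these were Adamts19 with LA above RA and 1 Adam23 probe with LA below RA. All 4 same-numbered pairs of MF1 had the higher value in LA for 12 of the 70 member probes, and in RA for 7. The share among all probes was not counted, so agreement of the 4 pairs is given below as a description only.

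**Figure D1:**
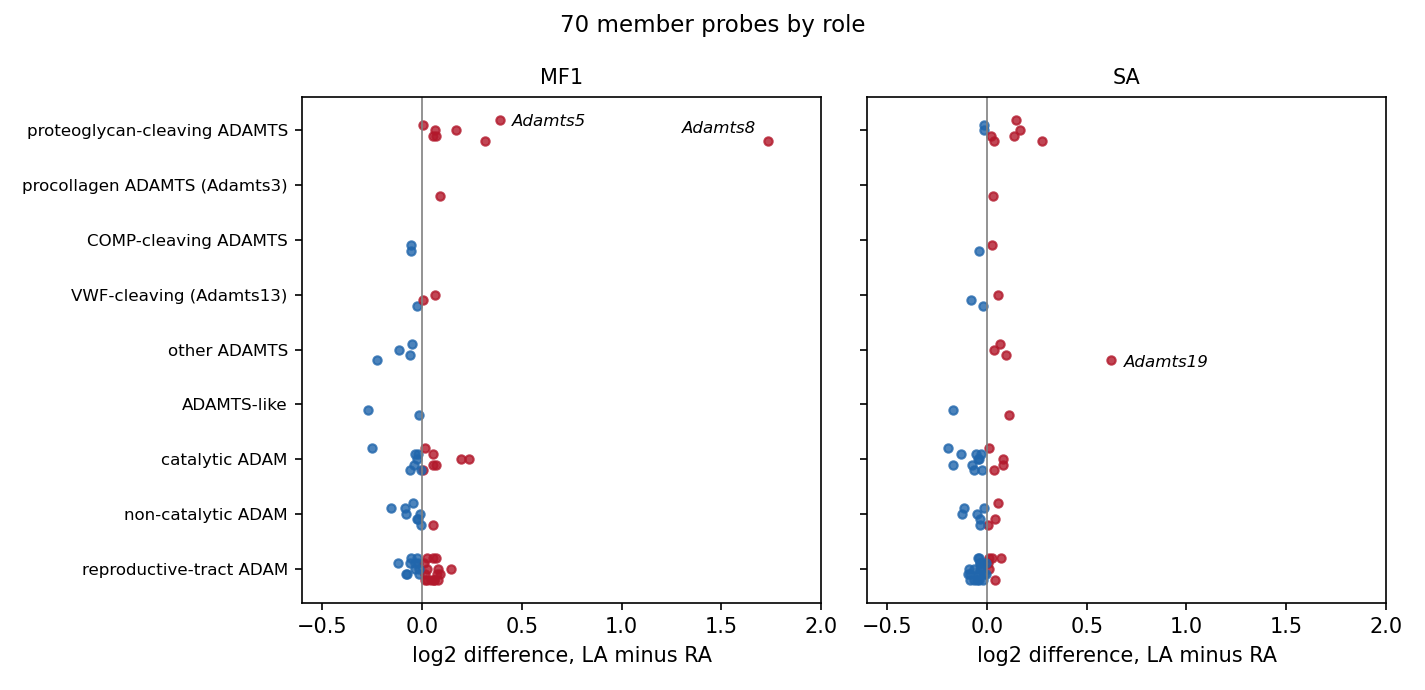
Log2 difference of LA minus RA for each of the 70 member probes (1 point each), with MF1 in the left panel and SA in the right panel, in rows by role; red points are above 0 and blue points below 0. The Adamts8 point at 1.74 in MF1 and the Adamts19 point at 0.62 in SA stand off from the others, which in both panels lie between -0.27 and 0.39.

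The proteoglycan-cleaving ADAMTS group held 6 genes on 8 probes: Adamts1, Adamts4, Adamts5, Adamts8, Adamts15 and Adamts20. All 8 probes had differences above 0 in MF1, with a median of 0.12, and 6 of 8 did in SA, with a median of 0.09, and both Adamts20 probes were the exceptions there. None of the 8 passed in either dataset without the block. Adamts8, an aggrecan-cleaving protease that also restrains endothelial growth, showed the largest difference of all members. Its value was 1.66, 2.22, 0.69 and 0.51 in LA replicates 1 to 4 of MF1, against -0.56, -0.37, -0.30 and -0.63 in RA replicates 1 to 4. The LA values did not overlap with the RA values, and LA replicates 1 and 2 were the highest. The difference was 1.74 (SE 0.34), a 3.33-fold higher value in LA, with an adjusted p of 0.0521 by limma, just outside the threshold. All 4 same-numbered pairs had the higher value in LA, by 2.22, 2.59, 0.99 and 1.15, and with the block the adjusted p was 0.0268.

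Without the stray LA replicate 2 of MF1, the Adamts8 difference was 1.42 with an adjusted p of 0.0186, which passes, and without LA replicate 4 it was 1.99 with an adjusted p of 0.0325. Without any 1 of the other 6 MF1 arrays the adjusted p was 0.0628 to 0.160. With an ordinary variance it was 0.227. It was 0.00193 with all 16 arrays in one fit, 0.0293 with array weights and 0.0034 with a further quantile normalization. With the block and 1 pair left out, Adamts8 passed without pair 2 (adjusted p 0.0013) and missed the threshold without pair 1, 3 or 4 (0.193, 0.0710 and 0.0854). In SA, Adamts8 was 0.58, 0.03, 0.16 and 0.15 in LA, against 0.01, -0.12, 0.09 and -0.15 in RA. These values overlapped, and the difference was 0.27 (SE 0.11, adjusted p 0.324), a 1.21-fold higher value in LA. Without LA replicate 1 of SA it was 0.16. The side difference of MF1 minus that of SA was 1.46 (SE 0.39), with an unadjusted p of 0.00178 and an adjusted p of 0.311 in the limma fit over 16 arrays.

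Of the marker lists of 15 chambers and cell types, 7 separated the LA from the RA arrays of MF1 in their mean, as did Adamts8. These lists hold genes already known to differ between the sides on these arrays, such as Bmp10, Vwf, Tmem108, Mfap4, Pi16, Tcf21, Reln and Dbh. Their separation was thus partly given in advance and is no independent measure of cell content. The mean of 8 fibroblast marker genes was 0.68, 0.37, 0.28 and 0.12 in LA replicates 1 to 4, against 0.11, -0.04, 0.12 and -0.11 in RA, and 5 of the 8 genes were higher in LA. The mean of 6 lymphatic endothelial marker genes was 0.34 to 0.46 in LA and -0.12 to 0.09 in RA, with 4 of the 6 genes higher in LA. The mean of 3 endocardial marker genes was lower in LA, at -0.87 to -0.53, against 0.37 to 0.59 in RA, with 3 of 3 genes lower in LA. Those of 5 endothelial, 5 epicardial and mesothelial, and 3 nerve and glia genes were lower as well, at -0.10 to 0.01, -0.42 to -0.18 and -0.53 to -0.41 in LA, against 0.07 to 0.14, 0.06 to 0.38 and 0.19 to 0.48 in RA, and 2 of 5, 5 of 5 and 3 of 3 of their genes were lower in LA. The nerve and glia mean rested mainly on 1 gene at -2.43, with a list median of -0.09. The seventh was the right atrial gene Bmp10. The mean of 3 macrophage genes was 0.63 in LA replicate 2, where Adamts8 was highest, and -0.08 to 0.19 on the other 7 MF1 arrays. Of these genes, 3 of 5 listed being measured, 1 was higher and 2 were lower in LA of MF1, with a median difference of -0.16. The lymphatic and endocardial lists separated the sides in SA too, where the Adamts8 values overlapped. The part of these cells in the Adamts8 difference was not tested. In these bulk samples, fewer cells of a type and less RNA per cell cannot be told apart.

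**Figure D2:**
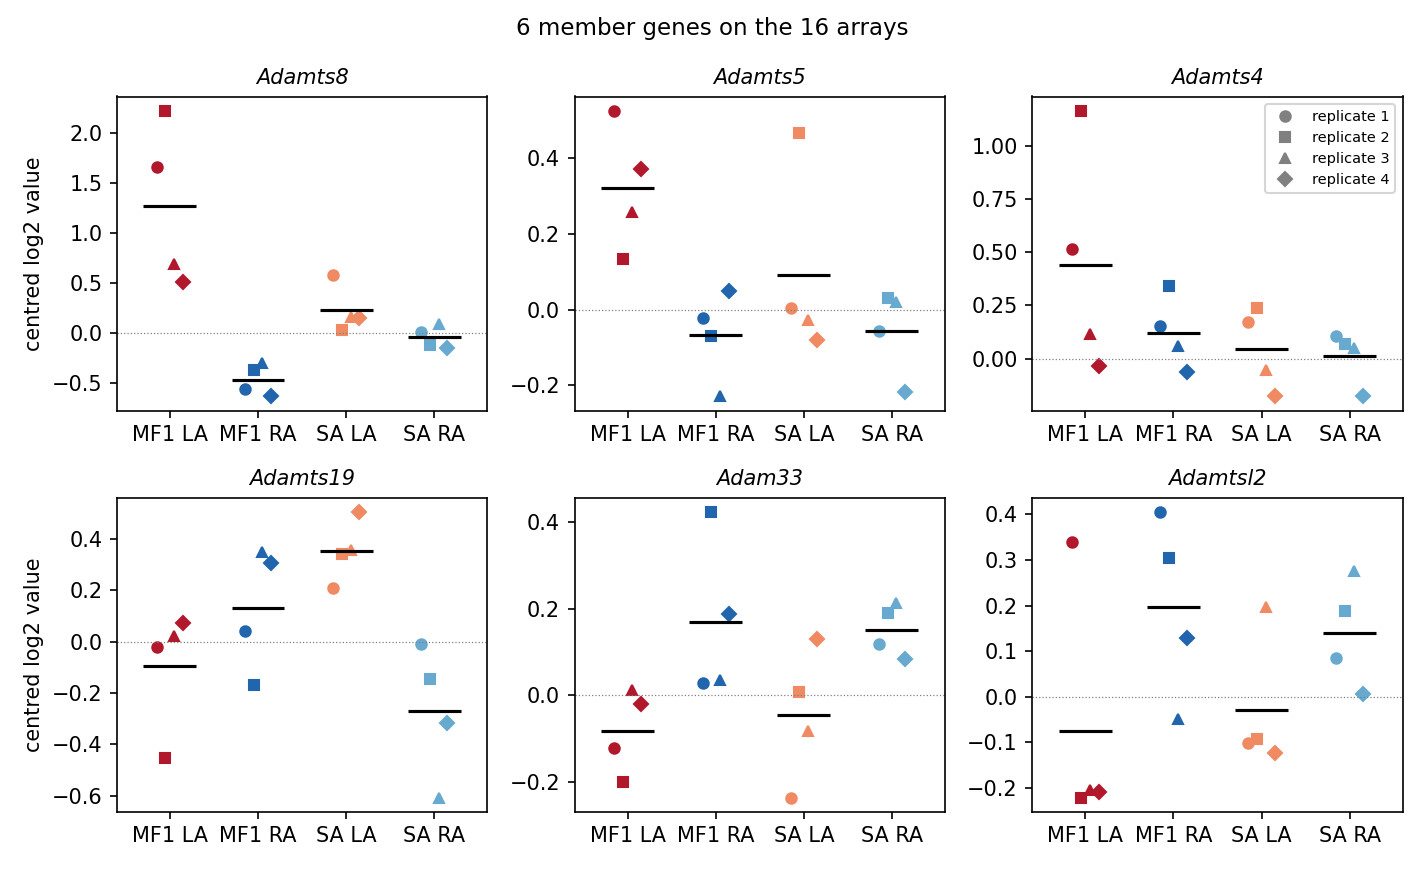
Centred log2 values of Adamts8, Adamts5, Adamts4, Adamts19, Adam33 and Adamtsl2 on the 16 arrays, in columns for MF1 LA, MF1 RA, SA LA and SA RA (n = 4 each); symbols mark the replicate number and bars the group mean. Adamts8 lies at 0.51 to 2.22 in MF1 LA and at -0.63 to -0.30 in MF1 RA, and Adamts19 is separated by side in SA alone.

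Adamts5, the main aggrecan and versican protease of cartilage and valves, was 0.53, 0.13, 0.26 and 0.37 in LA of MF1, against -0.02, -0.07, -0.23 and 0.05 in RA. The sides did not overlap, and LA was higher in 4 of 4 pairs. The difference was 0.39 (SE 0.09), a 1.31-fold higher value in LA with an adjusted p of 0.0975, and of 0.0455 with the block, where the fold stays under 1.5. With the block and 1 pair left out, the adjusted p was 0.00365 without pair 2. It was 0.234, 0.198 and 0.159 without pair 1, 3 or 4. In SA, Adamts5 was 0.01, 0.47, -0.03 and -0.08 in LA, against -0.06, 0.03, 0.02 and -0.22 in RA. The difference of 0.15 (SE 0.11, adjusted p 0.695) rested on LA replicate 2, without which it was 0.02. Adamts1, which cuts versican and restrains vessel growth, is the gene next to Adamts5 in the mouse genome (RefSeq GRCm38.p6). Its 2 probes differed by 0.05 and 0.07 in MF1 and by 0.14 and 0.02 in SA, with adjusted p values of 0.371 to 0.955.

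Adamts15, another versican protease, is the gene next to Adamts8. Its values were 0.51, -0.02, 0.13 and -0.10 in LA of MF1, against -0.11, 0.21, -0.05 and -0.21 in RA. In SA they were 0.00, 0.13, 0.16 and -0.08 in LA, against -0.26, -0.13, 0.06 and -0.13 in RA. The sides overlapped in both datasets, with a difference of 0.17 in each (SE 0.14 in MF1, 0.08 in SA, adjusted p 0.766 and 0.413). Without LA replicate 1 of MF1, the difference there was 0.0445. Adamts4, an aggrecanase induced by inflammation, was 0.52, 1.17, 0.11 and -0.04 in LA of MF1, against 0.15, 0.34, 0.06 and -0.06 in RA. Each LA value was above the RA value of its own pair, but the sides overlapped, and the difference was 0.32 (SE 0.24, adjusted p 0.728). Without the stray LA replicate 2 it was 0.08. In SA, Adamts4 was 0.17, 0.24, -0.05 and -0.18 in LA, against 0.11, 0.07, 0.05 and -0.18 in RA, a difference of 0.03 (SE 0.10, adjusted p 0.944). Adamts20, known from the belted coat of mutant mice, lay between -0.02 and 0.06 on its 2 probes in both datasets.

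Among the other ADAMTS genes, Adamts16, Adamts17, Adamts18 and Adamts19, all 4 probes were below 0 in MF1 (-0.23 to -0.05) and all 4 above 0 in SA (0.03 to 0.62). Adamts19, a protease whose loss in mice leads to disease of the aortic valve, was the member that passed. In SA it was 0.21, 0.34, 0.36 and 0.50 in LA, against -0.01, -0.15, -0.61 and -0.32 in RA. Every LA array lay above every RA array, and RA replicates 3 and 4 were the lowest. By same-numbered pair, LA was higher by 0.22, 0.49, 0.96 and 0.82. The difference was 0.62 (SE 0.12), a 1.54-fold higher value in LA with an adjusted p of 0.0247. The fold was near the threshold of 1.5, and the call was lost without LA replicate 2, LA replicate 3 or RA replicate 4 (adjusted p 0.0595, 0.0758 and 0.0688). Without LA replicate 4 or RA replicate 3 the difference was 0.57 and 0.51, a fold under 1.5. The adjusted p was above 0.05 with the replicate number as a block (0.0525), with an ordinary variance for each probe (0.206) and in a fit over all 16 arrays (0.0514).

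In MF1, Adamts19 was -0.02, -0.45, 0.02 and 0.07 in LA, against 0.04, -0.17, 0.35 and 0.30 in RA. The sides overlapped, while each LA value was below the RA value of its own pair. The difference was -0.23 (SE 0.15, adjusted p 0.678, and 0.133 with the block), and -0.11 without the stray LA replicate 2. The side difference of MF1 minus that of SA was -0.85 (SE 0.20), with an unadjusted p of 0.000739 and an adjusted p of 0.240. No member passed this test, where 2 probes did among all (0.00778%). At an unadjusted p under 0.05 there were 5 of 70 member probes (7.14%), beside 7.37% of all probes, and Adam29 (1 of 3 probes), Adam30 and Adamts18 were the others. The ventricular gene Myl2 was high in RA replicates 2 to 4 of SA, and Adamts19 was highest among the RA arrays in replicate 1, at -0.01, where Myl2 was lowest, at 0.45. Replicates 2 to 4 did not keep this order. Among them Adamts19 was lowest in replicate 3, at -0.61, where Myl2 was below its values in replicates 2 and 4. A relation of the 2 genes was not tested. The mean of the 6 lymphatic endothelial marker genes was 0.11 to 0.32 in LA of SA and -0.33 to -0.10 in RA, with 4 of the 6 genes higher in LA, 2 of them passing, and Lyve1 passing in the other direction. The means of the endocardial, mast cell, and nerve and glia markers lay lower in LA than in RA of SA, also without overlap. They were -0.43 to -0.33, -0.15 to -0.05 and -0.33 to -0.15 in LA, against 0.31 to 0.66, 0.05 to 0.41 and 0.12 to 0.33 in RA, and 3 of 3, 3 of 3 and 1 of 3 of their genes were lower in LA. The nerve and glia mean rested mainly on 1 gene at -1.51, with a list median of 0.02. The ventricular myocyte mean was lower in LA without overlap too, at -0.19 to 0.08 against 0.10 to 1.66 in RA. Of its 4 genes, 2 were lower in LA, and it rested mainly on Myl2 at -4.25, with a list median of -0.07. With the right atrial gene Bmp10, 6 of the 15 lists separated the sides in SA. As in MF1, these lists hold genes already known to differ between the sides. The part of these cell types in the Adamts19 difference was not tested.

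The remaining ADAMTS members showed differences of under 0.1 in size. Adamts3, which trims procollagen and activates the lymphatic growth factor VEGF-C, was 0.00, 0.02, 0.06 and -0.02 in LA of MF1, against -0.06, -0.13, -0.04 and -0.08 in RA. These narrow values did not overlap, with a difference of 0.09 (SE 0.04, adjusted p 0.496) in MF1 and 0.03 (SE 0.06, adjusted p 0.901) in SA. Adamts13, the protease of von Willebrand factor, had 3 probes between -0.03 and 0.06 in MF1 and between -0.08 and 0.06 in SA. Adamts7 and Adamts12, which cut cartilage oligomeric matrix protein, lay at -0.05 and -0.06 in MF1 and at -0.04 and 0.02 in SA.

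Of the ADAMTS-like genes, Adamtsl2, a microfibril-binding glycoprotein whose mutation causes geleophysic dysplasia in humans, was lower in LA in every same-numbered pair of both datasets. Its values were 0.34, -0.22, -0.21 and -0.21 in LA of MF1, against 0.41, 0.30, -0.05 and 0.13 in RA. In SA they were -0.10, -0.09, 0.20 and -0.12 in LA, against 0.08, 0.19, 0.28 and 0.01 in RA. One LA array of each dataset lay far above the other 3, and the sides overlapped. The difference was -0.27 (SE 0.15, adjusted p 0.577) in MF1 and -0.17 (SE 0.08, adjusted p 0.462) in SA. Without LA replicate 1, the array that stood high in MF1, it was -0.41 with an adjusted p of 0.196. Adamtsl4, a relative that binds fibrillin, differed by -0.01 (SE 0.28) in MF1, where LA replicate 2 was at -1.04, and by 0.11 (SE 0.07) in SA.

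The catalytic ADAM group held 9 genes on 14 probes, of which 7 were above 0 in MF1 and 4 in SA, with medians of 0.00 and -0.04. None passed in either dataset. Adam33, a protease of mesenchymal and smooth muscle cells, was the only member with an unadjusted p under 0.05 and lower values in LA in both datasets. It was -0.12, -0.20, 0.01 and -0.02 in LA of MF1, against 0.03, 0.42, 0.04 and 0.19 in RA. In SA it was -0.24, 0.01, -0.08 and 0.13 in LA, against 0.12, 0.19, 0.21 and 0.08 in RA. The sides did not overlap in MF1, while in SA LA replicate 4 lay above 2 RA arrays. The difference was -0.25 (SE 0.09, adjusted p 0.343) in MF1 and -0.20 (SE 0.07, adjusted p 0.292) in SA, and neither passed. Without RA replicate 2 of MF1 the difference there was -0.17.

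The best known sheddases, Adam10 and Adam17, did not pass in either dataset. Adam10, which releases Notch and cadherins, was 0.01, -0.01, -0.08 and -0.06 in LA of MF1, against 0.01, 0.08, -0.03 and -0.12 in RA. Its difference was -0.02 (SE 0.05, adjusted p 0.949) in MF1 and -0.05 (SE 0.06, adjusted p 0.812) in SA. Adam17, the enzyme that releases tumour necrosis factor, was 0.43, 0.34, -0.14 and -0.05 in LA of MF1, against 0.23, 0.00, 0.00 and 0.12 in RA. The difference of 0.06 (SE 0.13, adjusted p 0.944) changed sign without LA replicate 1 or 2, to -0.04 and -0.01. In SA, Adam17 was 0.01, -0.16, -0.10 and -0.27 in LA, against 0.13, 0.12, 0.08 and -0.17 in RA. The difference there was -0.17 (SE 0.08, adjusted p 0.439), and LA was lower in every same-numbered pair.

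Adam9, a sheddase of fibroblasts and epithelia, was 0.23, 0.60, 0.16 and -0.02 in LA of MF1, against 0.20, -0.23, 0.06 and -0.02 in RA. The sides overlapped, with a difference of 0.24 (SE 0.14, adjusted p 0.612) that was 0.12 without the stray LA replicate 2, and in SA it was 0.08 (SE 0.06, adjusted p 0.705). Adam19, which sheds neuregulins and is needed for septation of the heart in mice, differed by 0.19 (SE 0.16) in MF1 and by -0.05 (SE 0.15) in SA. It was among the members with the widest spread within groups. Adam12, Adam15, Adam8 and the lymphocyte gene Adam28 lay between -0.06 and 0.07 in MF1 and between -0.13 and 0.08 in SA.

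The ADAM members without an active protease, Adam11, Adam22 and Adam23, are neural ligands and receptors, and 8 of their 9 probes were below 0 in MF1 and 6 of 9 in SA. The lowest were an Adam11 probe at -0.15 in MF1 and an Adam23 probe at -0.13 in SA. That Adam23 probe had an unadjusted p of 0.0498 and an adjusted p of 0.395, and the other 2 probes of the gene were at 0.01 and 0.04 there. The 17 ADAM genes known mainly from testis, epididymis and sperm had 27 probes, 16 above 0 in MF1 and 6 in SA. Their differences ranged from -0.12 to 0.15 in MF1 and from -0.09 to 0.07 in SA, and none passed. Adam30 was 0.19, 0.09, 0.00 and 0.13 in LA of MF1, against -0.07, -0.04, -0.02 and -0.05 in RA, without overlap. The difference of 0.15 (SE 0.05, adjusted p 0.290) was -0.04 (SE 0.06) in SA.

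Probes of one gene could be compared for 15 members. All probes of a gene lay on the same side of 0 for 7 of the 15 in MF1 and for 6 in SA, with Adamts1, Adamts20 and Adam22 on one side within each dataset. None of the members named above with a large difference had a second probe, so that Adamts8, Adamts5, Adamts19 and Adam33 each rest on 1 probe.

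**Figure D3:**
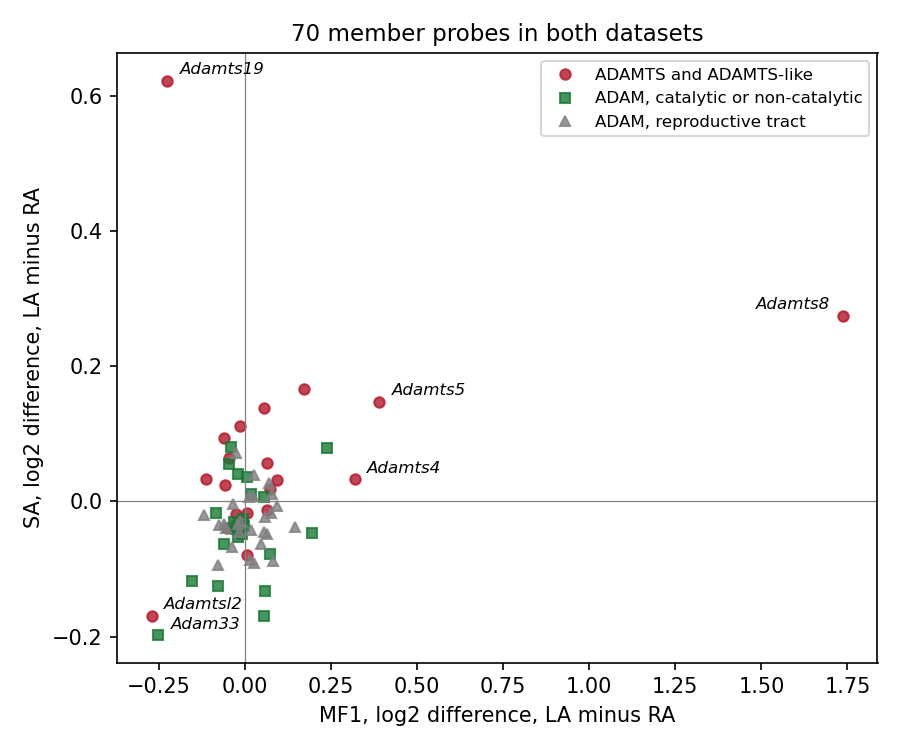
Log2 difference of LA minus RA in MF1 (x axis) against that in SA (y axis) for the 70 member probes; circles are ADAMTS and ADAMTS-like genes, squares catalytic and non-catalytic ADAM genes, and triangles ADAM genes of the reproductive tract. The 2 datasets share no sample; Adamts8 (1.74 in MF1, 0.27 in SA) lies far to the right and Adamts19 (-0.23 in MF1, 0.62 in SA) far to the top.

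The side with the higher value was the same in MF1 and SA for 42 of 70 member probes (60.0%), with LA in 17 and RA in 25, beside 55.6% of all probes. It was the same for 6 of 8 probes of the proteoglycan-cleaving group, all with LA higher, and for none of the 4 probes of Adamts16 to Adamts19.

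Genes that control these proteases or are cut by them were read from the same fits. Of 89 genes in lists of inhibitors, partners, convertases and substrates, 80 were measured, on 128 probes. In MF1, 1 probe passed with a higher value in LA and 2 with a lower value (2.34%, beside 0.79% of all probes). In SA, 1 passed in each direction (1.56%, beside 0.63% of all probes). The lists were chosen with earlier results of these data known. Among 5 inhibitor genes, Timp4, the most heart-restricted TIMP, was higher in LA in both datasets, by 1.47 (SE 0.12, 2.77-fold, adjusted p 0.00095) in MF1 and 1.22 (SE 0.11, 2.33-fold, adjusted p 0.000601) in SA. Timp4 lay between 0.61 and 1.04 in LA of MF1, against -0.76 to -0.35 in RA, and between 0.42 and 0.94 in LA of SA, against -0.57 to -0.31 in RA. No array overlapped between the sides.

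Timp3, the matrix-bound inhibitor of ADAM17 and of the aggrecan-cleaving ADAMTS proteases, was lower in LA on 1 of its 2 probes in MF1, by 0.82 (SE 0.13, 1.77-fold, adjusted p 0.0191). That probe was -0.69, -0.46, -0.40 and -0.05 in LA replicates 1 to 4 of MF1, against 0.24, 0.48, 0.45 and 0.52 in RA. This call did not survive the loss of LA array 3, or of any of RA arrays 2, 3 and 4, with adjusted p values of 0.0598 to 0.0747, nor an ordinary variance (0.134). The difference of that probe was -0.30 (SE 0.07, adjusted p 0.0617) in SA, and the other probe lay at -0.29 in MF1 and -0.16 in SA, with adjusted p values of 0.294 and 0.504. Timp1, Timp2 and Reck did not pass in either dataset.

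Von Willebrand factor (Vwf), the substrate of Adamts13, was the only 1 of 16 matrix substrate genes to pass, and was lower in LA in both datasets, 2.03-fold in MF1 (adjusted p 0.00428) and 1.70-fold in SA (adjusted p 0.00171). With an ordinary variance, neither Vwf call held (adjusted p 0.0666 and 0.0688). Vwf is also 1 of the 3 endocardial marker genes above. Fibromodulin (Fmod) was lower in LA of MF1 by 0.53 (SE 0.07, adjusted p 0.0120) on 1 of 2 probes, a fold under 1.5. Versican (Vcan) differed by 0.00 (SE 0.05) in MF1 and by -0.11 (SE 0.06) in SA, and did not pass. None of 31 measured substrates shed by ADAM proteases passed, nor any of 8 partner genes of ADAM10 and ADAM17, 2 convertase genes, 4 genes around VEGF-C, 4 ligands of ADAM22 and ADAM23, or 10 microfibril genes. With the block in MF1, Lgi3, an LGI-family gene, passed with lower values in LA (1.78-fold, adjusted p 0.0195), as did 1 of 3 probes of Tspan17, a tetraspanin partner of ADAM10, with higher values in LA (1.52-fold, adjusted p 0.0360). In SA, Icam1, 1 of 3 Furin probes, 1 of 3 Ltbp4 probes and Mfap5 had an adjusted p under 0.05 and a fold under 1.5, with Mfap5 higher in LA and the other 3 lower.

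**Figure D4:**
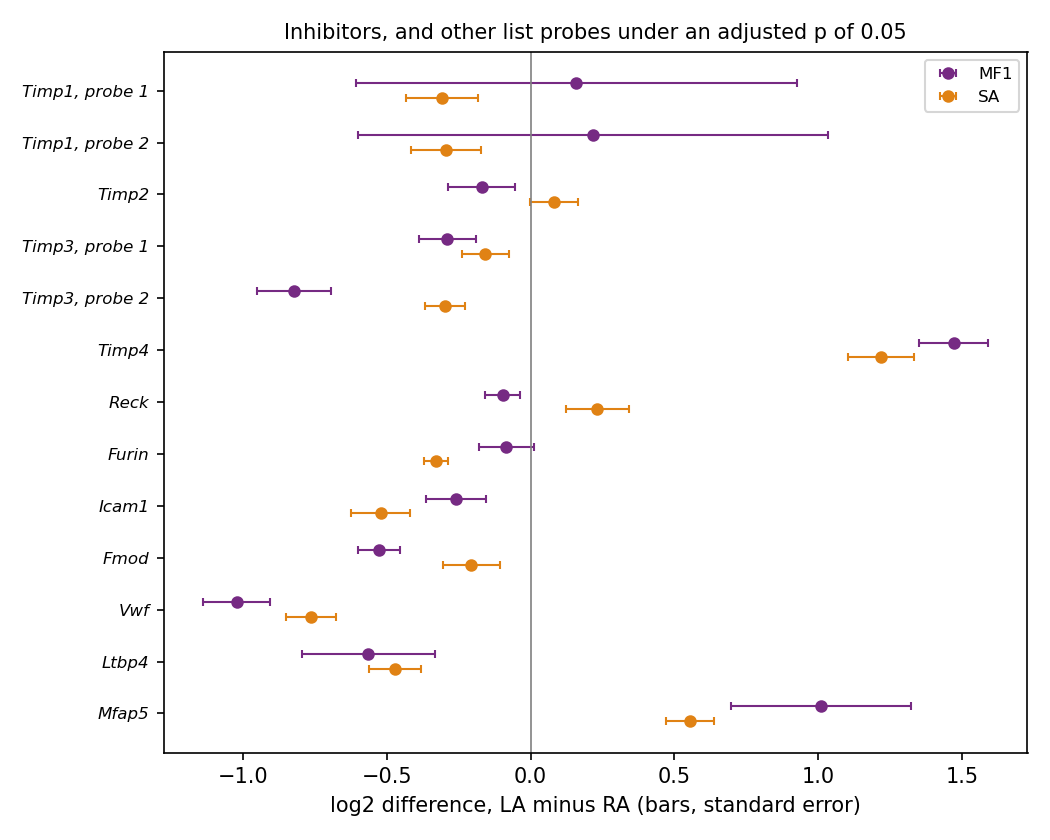
Log2 difference of LA minus RA with its standard error in MF1 (purple, upper point) and SA (orange, lower point) for the probes of 5 inhibitor genes and for the other list probes with an adjusted p under 0.05 in either dataset. Timp4 lies at 1.47 and 1.22 and Vwf at -1.02 and -0.76, on one side in both datasets, while the Timp1 probes have wide error bars in MF1.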

How the data were processed

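RNA of 16 atria was measured on Illumina MouseRef-8 arrays. The authors used Genome Studio for signal extraction, then GeneSpring for a quantile step per dataset and a baseline at the median of each probe. The deposited log2 values of these steps were used as given. They hold no level and no detection limit, and folds of dim probes may be understated. Another 32 columns of per-sample values before normalization were not used, as no name ties them to a sample.

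For each dataset, LA minus RA was fitted by limma 3.58.1 (R 4.3.3, lmFit and eBayes without a block) on 25697 probes, with Benjamini-Hochberg adjustment, and the side differences of the datasets in a fit of 4 groups over 16 arrays. Precision is limited by the number of mice, 4 per dataset, and the main fit leaves out the pairing of the 2 atria of a mouse. Arrays of one number correlated at 0.23 to 0.499 over probes in MF1 (other numbers -0.286 to 0.0203) and at -0.112 to 0.138 in SA (other numbers -0.157 to 0.33). The titles number the sides alike in both datasets. Differences by pair are described mainly for MF1, a choice made from these correlations and not from the design, and the block was run in both datasets. In SA, among the 12 named probes, the same-numbered pairs had one sign for Adamts8, Adamts15, Adamts19, Adam17 and Adamtsl2. They had both signs for the other named probes. No 2 arrays were duplicates. The pipeline was tested on simulated data.

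The annotation leaves 1719 probes unnamed. The members and lists were chosen with earlier results of these data known. Values of every array are given for the 6 members with the largest difference in each dataset, for those with an adjusted p under 0.05, and for Adam10, Adam17, Adamts1, Adamts8 and Adamts19, in part as ranges or differences; Adamts3, Adam30 and Adam19 were added after their values were seen. Alternatives were the block, an ordinary variance, all 16 arrays in one fit, array weights, a further quantile normalization over the 16 arrays, the adjusted p alone, and leaving out each array.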

Additional observations from a re-analysis of the deposited data

Results flagged for a closer look

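Of 48 groups of 4 arrays, from 12 member probes, 4 had 1 array far from the other 3, by Dixon's test of the gap against the group's range. Chance gives about 1 in 20. In SA, Adam17 was at -0.17 in RA replicate 4, below the other RA arrays, and Adamts5 was at 0.47 in LA replicate 2, above the other LA arrays. Adamtsl2 was at 0.34 in LA replicate 1 of MF1 and at 0.20 in LA replicate 3 of SA, each above the other LA arrays of its dataset.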

How the results depend on the processing

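The number of member probes passing was 0 in MF1 without a block and 1 in SA. In MF1 it was 1 with the replicate block, with all 16 arrays in one fit, with array weights and with a further quantile normalization, 2 with the replicate block and the adjusted p alone (the last alternative, like the block with 1 pair left out, was chosen after seeing the data), and 0 to 1 when 1 array, or with the block 1 pair, was left out. In SA it was 0 with the replicate block, with an ordinary variance, with all 16 arrays in one fit and with the further quantile normalization, and 0 to 1 when 1 array was left out. The SA titles carry replicate numbers like those of MF1, but same-numbered SA arrays did not deviate together. Regulator and substrate probes passing numbered 3 in MF1, and were 5 with the replicate block, beside 1.14% of all probes. There were 1 with an ordinary variance, 7 with all 16 arrays in one fit and 5 with the further quantile normalization. In SA they numbered 2, and were 1 with an ordinary variance and 4 with the further quantile normalization. With the adjusted p alone they were 6 in SA, beside 2.02% of all probes. Shares of all probes are not given for the other settings. The cause of these shifts was not tested. For the difference between the datasets, no member passed under any of the 20 alternatives run.

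Differences near 0 changed sign when 1 array was left out: Adam17 in MF1 (-0.0400 to 0.152), Adam10 in MF1 (-0.0542 to 0.0102), 1 Adamts1 probe in SA (-0.0222 to 0.0601) and Adamts4 in SA (-0.0310 to 0.107). With the replicate block and pair 2 left out, Adam17 was at -0.0383 and Adam10 at 0.00178 in MF1. The counts of members higher in LA were 34 to 38 in MF1 and 24 to 31 in SA over all alternatives. A background correction, a filter on dim probes and the slide as a block were not run, since the signals before normalization could not be tied to samples and no slide is named.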
